A study of Homo sapiens with 38 samples.

Results

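The enzymes that make and tail microRNAs (miRNAs) were followed in nuclear and cytoplasmic RNA of HCT116 cells that lack Argonaute proteins. The set holds 10 genes out of the 58425 with a quantified transcript: DROSHA, DGCR8, DICER1, XPO5, TARBP2, PRKRA, DDX5, DDX17, TUT4 and TUT7. They were chosen by name for their known roles, with earlier results of these data known. All 10 passed the filter on low counts in both fractions. HCT116 is a human colorectal carcinoma line. RNA-seq was carried out on wild-type cells and on 4 gene-edited lines without AGO1, AGO2, AGO1 and AGO2 (AGO1/2), or AGO1, AGO2 and AGO3 (AGO1/2/3), with no drug treatment. Each genotype is 1 cell line, and 3 libraries were made from each line and fraction, named by culture passage: 27, 28 and 29 in wild type, 6 to 8 in AGO1, 8 to 10 in AGO2, 9 to 11 in AGO1/2, and 11, 12 and 14 in AGO1/2/3 knockout cells. Genotype, clone and passage therefore cannot be told apart, and p-values measure only the spread between passages of a line.

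A miRNA is cut from a long primary transcript in the nucleus by the Microprocessor, which consists of the nuclease DROSHA and its RNA-binding partner DGCR8, with the RNA helicases DDX5 (p68) and DDX17 (p72) as cofactors for some hairpins. Exportin-5, the product of XPO5, carries the precursor hairpin to the cytoplasm, where DICER1 and its double-stranded-RNA-binding partners TARBP2 (TRBP) and PRKRA (PACT) release the miRNA duplex that is loaded into an Argonaute protein. The terminal uridylyltransferases TUT4 and TUT7 add uridines to precursor hairpins and mRNA tails, and in stem cells they act with LIN28 on the precursors of let-7. Several of these genes are known to be tied to miRNAs in return: DROSHA with DGCR8 cleaves a hairpin in the DGCR8 transcript, and let-7 and the miR-103 family are known regulators of DICER1.

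The miRNA sequences that link members of the pathway to each other are shown first, from RefSeq on GRCh38.p14, with the seed (bases 2 to 8) in capitals. The let-7 and miR-103 families are given because their matches in DICER1 are described next, and miR-103a-3p and miR-107 share 1 seed.
let-7a-5p: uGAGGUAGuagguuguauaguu
miR-103a-3p: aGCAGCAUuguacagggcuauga
miR-107: aGCAGCAUuguacagggcuauca
Members also host miRNA genes. DGCR8 holds miR-3618 in untranslated exon sequence (chr22:20085797-20085818, plus strand) and miR-1306 in coding exon sequence (5p arm at chr22:20086072-20086093).
miR-3618: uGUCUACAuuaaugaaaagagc
miR-1306-5p: cCACCUCCccugcaaacgucca
miR-1306-3p: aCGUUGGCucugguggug
Introns of DDX5 hold miR-3064 and miR-5047, and an intron of DICER1 holds miR-3173. Mature miRNAs were not measured in these libraries.

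The 3′ untranslated region (UTR) of DICER1 is 4270 bases long in the transcript DICER1-201, against a median of 1066 bases over all annotated UTRs, and 90.2% of UTRs are shorter. On its transcribed strand it holds 5 copies of ATGCTGC, the match to the seed shared by miR-103a-3p and miR-107, shown in capitals with the bases before and after it (GRCh38, minus strand). The distances run from the stop codon. Over whole transcripts this match occurs 6 times in DICER1-201 but once in DICER1-204, a coding form with a higher wild-type cytoplasmic level (5.89 against 2.85 TPM). Both forms hold 4 matches to the let-7 seed. In the current annotation the coding forms DICER1-202 and DICER1-209 hold 2 and 6 copies of ATGCTGC. Their deposited lengths differ from that annotation (10220 against 7423 and 607 against 10453 bases).
DICER1, 1034 bases, chr14:95089457-95089478: atcacacctaaaatATGCTGCa
DICER1, 1635 bases, chr14:95088856-95088877: tgatgcttcgtggaATGCTGCa
DICER1, 2839 bases, chr14:95087652-95087673: ccgcagtcctaactATGCTGCg
DICER1, 4110 bases, chr14:95086381-95086402: atatttaccatcacATGCTGCa
DICER1, 4162 bases, chr14:95086329-95086350: ttcatacagtaatcATGCTGCa
Of 19214 UTRs searched, 12.5% held at least 1 copy and 5 UTRs (0.026%) held at least 5. Among UTRs of at least 4000 bases, 38% held at least 1 copy. TARBP2 was the other member with a copy (1), and the remaining 8 had none in the UTR searched. The let-7 match CTACCTC was found in 9.72% of UTRs and, among the members, in that of TARBP2 only. In the coding sequence of DICER1 it occurred 4 times, and 18 of 19701 coding sequences (0.0914%) held at least 4 and 13.3% at least 1. XPO5 and TUT4 held 1 each in their coding sequence, and the remaining 7 members none. The DICER1 matches are shown because let-7 is a known regulator of that gene. They were looked up with the levels of DICER1 known, and no link between matches and levels was tested.
DICER1, coding base 2635, chr14:95107888-95107909: cagcatactgtgttCTACCTCt
DICER1, coding base 3641, chr14:95103748-95103769: acccgtgcaaccaaCTACCTCa
DICER1, coding base 3749, chr14:95103640-95103661: aaatgctaacaaatCTACCTCa
DICER1, coding base 5139, chr14:95094106-95094127: gatgcgattttggaCTACCTCa
These are letter matches in the annotation. Binding was not measured here.

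Nuclear libraries held 20431557 to 54097984 estimated reads and cytoplasmic libraries 39476205 to 79731793, and the wild-type libraries were the shallowest of each fraction. AGO1 mRNA was lower in the 3 lines edited at AGO1, with a log2 change in AGO1/2/3 knockout cells of -1.70 in nuclear and -3.29 in cytoplasmic RNA. AGO2 mRNA changed by -0.44 and 0.11 in the same cells and AGO3 mRNA by -0.30 and 0.34, so the summed mRNA level of these 2 genes did not fall in both fractions and does not check their edits. MALAT1, a nuclear RNA, was higher in nuclear than in cytoplasmic wild-type RNA by 3.83 on the log2 scale in the fit of both fractions. Its nuclear level was 15960 CPM (read counts scaled to library size) in wild-type, 7044 CPM in AGO1/2 and 8244 CPM in AGO1/2/3 knockout cells, while nuclear GAPDH, a cytoplasmic mRNA, was 1649, 3555 and 3097 CPM in wild-type, AGO1/2 and the AGO1/2/3 knockout cells. In the nuclei with AGO1/2 lost and then with all 3 genes lost, RPLP0, also a cytoplasmic marker, was higher (log2 0.33 and 0.40). The other 2 cytoplasmic markers, MT-CO1 (-0.19 and 0.019) and MT-ND4 (-0.080 and 0.25), were not called in either line. The shifts of MALAT1 and GAPDH move with the nuclear comparisons given below, and their part in them was not tested. Of 8 epithelial markers, VIL1, CEACAM5 and LGR5 were under 1 TPM in all libraries (TPM, length-scaled transcript abundance, is used again further on), and the summed level of the list was 1150 to 1253 TPM in wild-type nuclei, 2597 to 2771 in AGO1/2 and 2011 to 2360 in AGO1/2/3 knockout nuclei. In cytoplasmic RNA the list summed to 1167 to 1326 TPM in wild-type, 804.9 to 977.6 in AGO1/2 and 1063 to 1319 in AGO1/2/3 knockout cells. CDH1, the epithelial cadherin, was lower with all 3 genes lost (log2 -1.49 and -2.40 in nuclear and cytoplasmic RNA), and the keratins KRT8 (1.22 and 0.40) and KRT19 (1.37 and 0.64) were higher. Of 8 markers of blood, connective tissue, endothelial and liver cells, 7 were under 1 TPM in every group, and the list summed to 4.99 to 6.40 TPM in wild-type nuclei.

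Wild-type passage 29 stood apart from passages 27 and 28 in both fractions. In cytoplasmic RNA it held 77.22 CPM of DICER1 against 125.5 and 127.7, 35.12 CPM of DGCR8 against 51.12 and 54.11, 308.3 CPM of DDX5 against 480.0 and 473.7, and 195.4 CPM of DDX17 against 273.2 and 271.1. In nuclear RNA it held 160.4 CPM of DICER1 against 206.8 and 200.4. Values without this library are therefore given for many of the calls that it changes, and other such losses are stated without a value. Each CPM value sums all transcripts of the gene, and the scaling was done for each fraction on its own, so that CPM compare libraries within a fraction only.

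Levels can be compared between genes on the TPM scale, which divides by transcript length. In wild-type cells DDX5 was the most abundant member in both fractions, at 413 ± 66.0 TPM (SD, n = 3) in nuclear and 150 ± 42.7 TPM in cytoplasmic RNA, followed by DDX17 at 142 ± 7.12 and 45.5 ± 10.3 TPM. The libraries of DDX5 and DDX17 did not overlap each other or the next gene in either fraction. In the nucleus DROSHA (46.9 ± 5.03 TPM), TUT4 (44.1 ± 3.56) and XPO5 (36.9 ± 7.62) came next, each overlapping its neighbour. DICER1 (23.9 ± 4.97), PRKRA (21.5 ± 1.97), TUT7 (20.7 ± 1.02), DGCR8 (18.7 ± 4.39) and TARBP2 (12.2 ± 2.28) followed below XPO5 and also overlapped their neighbours. In the cytoplasm the order was XPO5 (17.3 ± 2.56), PRKRA (15.7 ± 1.26), TUT4 (14.6 ± 0.413), DROSHA (14.0 ± 2.80), DICER1 (13.0 ± 3.47), TARBP2 (8.24 ± 1.45), DGCR8 (8.02 ± 2.17) and TUT7 (5.36 ± 0.433), and each of these overlapped the next. The helicases thus stood apart from the other members, and DICER1 and its partner PRKRA could not be ordered in either fraction.

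**Figure D1:**
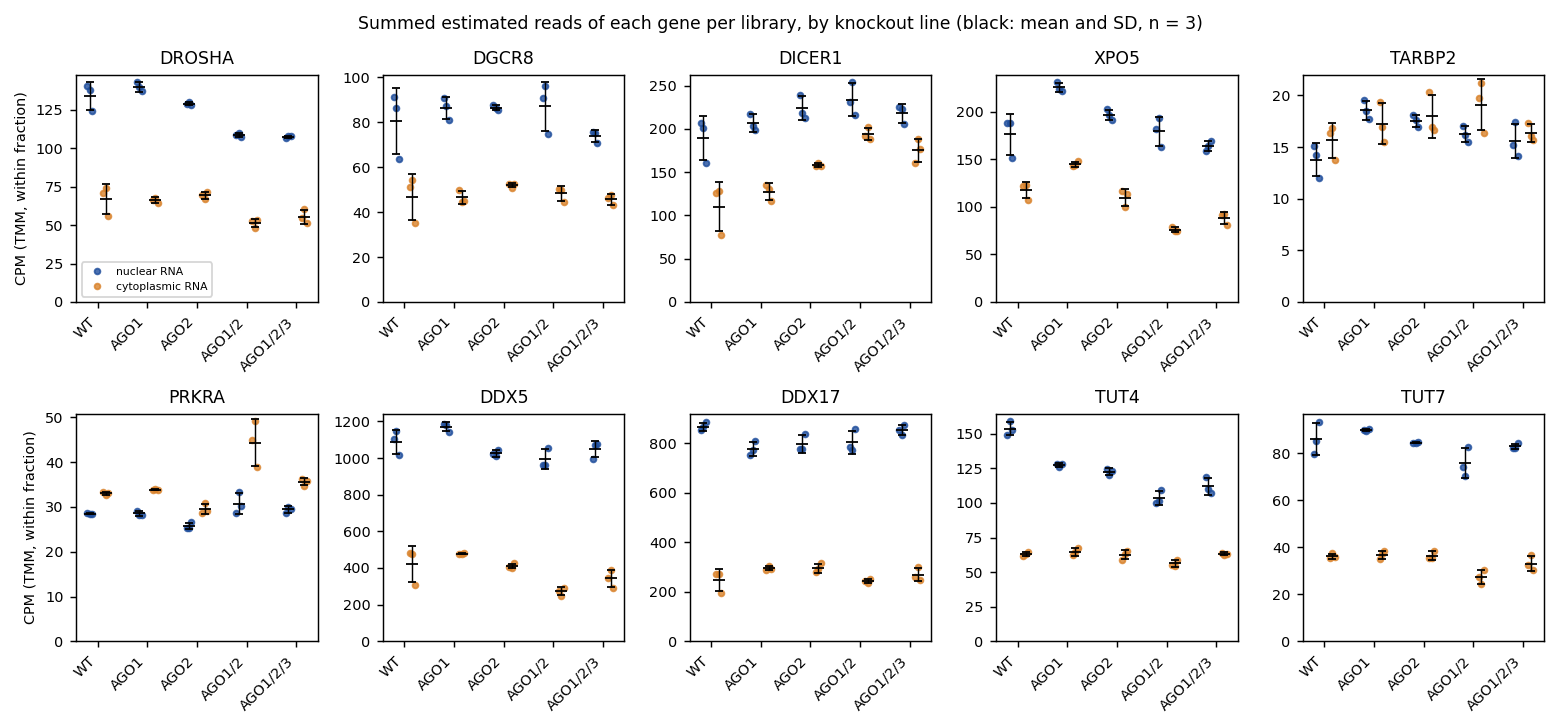
Level of the 10 genes in CPM (linear axes from 0), by genotype, in nuclear (blue) and cytoplasmic RNA (orange). Each point is 1 library and the black bars give the mean and SD of 3. CPM were scaled within each fraction, so nuclear and cytoplasmic heights are not from 1 scaling. Cytoplasmic DICER1 lies between 188.0 and 202.1 CPM in AGO1/2 knockout cells, above the 3 wild-type libraries.

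The first question was whether the loss of Argonaute proteins, which receive the product of this pathway, went with other mRNA levels of the pathway itself. In cytoplasmic RNA, where mRNAs are translated, 7 of the 10 members were called in AGO1/2 knockout cells (2 higher, 5 lower) at a Benjamini-Hochberg adjusted p of at most 0.05. In the same comparison 49% of the 17605 genes tested were called. In AGO1/2/3 knockout cells 3 members were called (1 higher, 2 lower) against 38.6% of all genes, in AGO1 knockout cells 1 against 12.2%, and in AGO2 knockout cells 1 against 15.9%. The median log2 change over the members was -0.09 in AGO1/2 and -0.02 in AGO1/2/3 knockout cells, beside -0.0087 and -0.014 over all genes. Whether members were called more or less often than other genes was not tested, and the descriptions that follow concern which members moved and how far.

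The scale matters for directions here. On log2(TPM + 1), tested with limma, the median of all genes moved by -0.11, -0.19, -0.34 and -0.22 in the cytoplasm of the AGO1, AGO2, AGO1/2 and the AGO1/2/3 line against wild type, and by -0.16, -0.17 and -0.14 in the nuclei of AGO1, AGO2 and AGO1/2/3 knockout cells. The share of called genes that were higher went from 34.3%, 44.1%, 48.6% and 48.1% to 6.01%, 5.49%, 12.1% and 16% in the cytoplasm, and from 47.9%, 50.4% and 49.6% to 6.44%, 11.5% and 30% in these nuclei. Relative to the median on that scale, cytoplasmic DICER1 was at 0.74 in AGO1/2 and 0.60 in AGO1/2/3 knockout cells, XPO5 at -0.52 and -0.33, nuclear TUT4 at -0.68 and -0.55, and nuclear DROSHA at -0.75 and -0.68, the directions given by the counts. On both TPM scales the calls of nuclear XPO5, TARBP2 and DICER1 against wild type were lost, as were those of cytoplasmic XPO5 in AGO1, DICER1 in AGO2 and PRKRA in AGO1/2 knockout cells. That test sets a gene against 0 and not against the median. Relative to the median on log2(TPM + 1), the nuclear values were 0.26 for XPO5 in AGO1, 0.44, 0.30 and 0.050 for TARBP2 in AGO1, AGO2 and AGO1/2, and 0.18 and 0.15 for DICER1 in AGO2 and AGO1/2 knockout cells, and the cytoplasmic ones 0.28 for XPO5, 0.43 for DICER1 and 0.34 for PRKRA. Between lines the share of higher calls went from 48.7% to 6.27% (nuclear) and from 49.4% to 94.4% (cytoplasmic) for AGO1/2/3 against AGO1/2, from 49.5% to 68.8% and 51.3% to 25% for AGO1/2 against AGO1, from 50.7% to 75.9% and 50.3% to 26.5% for AGO1/2 against AGO2, and from 55.5% to 36.7% in the cytoplasm for AGO2 against AGO1. Between fractions it went from 51.5% to 66.1% in wild type and from 53.9% to 91.9% in AGO1/2 knockout cells.

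DICER1 (ENSG00000100697.17, chromosome 14, 95086228 to 95158010, minus strand), the nuclease that cuts the precursor hairpin, was the member with the largest cytoplasmic rise. Its wild-type libraries held 125.5, 127.7 and 77.22 CPM, the AGO1/2 knockout libraries 192.2, 202.1 and 188.0 CPM, and the AGO1/2/3 knockout libraries 161.0, 187.7 and 176.7 CPM. All 6 libraries of the 2 multiple knockouts lay above all 3 of wild type. The rise was 1.76-fold with AGO1/2 lost (log2 0.82 ± 0.14 SE, adjusted p = 0.000198) and 1.59-fold with AGO1/2/3 lost (log2 0.67 ± 0.14, adjusted p = 0.00144). Without wild-type passage 29 it was 0.62 and 0.47 on the log2 scale and stayed called in both lines. In AGO2 knockout cells the level was 157.5, 160.4 and 156.5 CPM and the log2 rise 0.52 ± 0.14 (adjusted p = 0.0193), or 0.32 without wild-type passage 29 (adjusted p = 0.00875). That call was lost without AGO2 passage 8 or 9 (log2 0.53 and 0.51, adjusted p = 0.0569 and 0.0561). AGO1 knockout cells, at 135.2, 130.6 and 117.0 CPM, were not called.

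**Figure D2:**
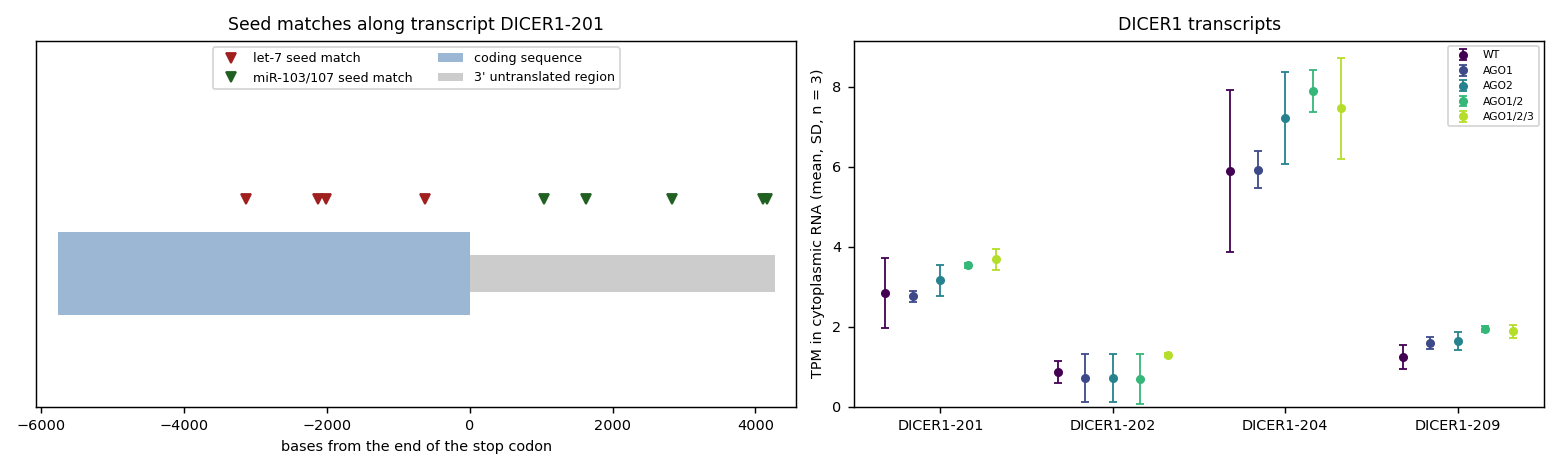
Left, letter matches to the let-7 (red) and miR-103 family seeds (green) along the coding sequence and 3′ UTR of DICER1-201, in bases from the end of the stop codon. Right, TPM in cytoplasmic RNA of the DICER1 transcripts that held at least 10% of the gene, as mean and SD of 3 libraries. DICER1-204 averaged 5.89 TPM in wild-type and 7.90 TPM in AGO1/2 knockout cells, and the wild-type bars are the widest for it.

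The changes of the partners of DICER1 were smaller in size. PRKRA (ENSG00000180228.14, chromosome 2, 178431292 to 178451512, minus strand) held 33.34, 32.58 and 33.17 CPM in wild-type and 44.95, 49.26 and 38.9 CPM in AGO1/2 knockout cytoplasm, a log2 rise of 0.43 ± 0.073 (adjusted p = 0.000195) with no overlap. On the TPM scale that difference was -0.0085, and 0.34 relative to the median of all genes on that scale. AGO1/2/3 knockout cytoplasm held 36.3, 34.79 and 35.82 CPM of PRKRA, above wild type in each library, and the change was not called (log2 0.11, adjusted p = 0.259). It was also the member that differed between the 2 multiple knockouts in the cytoplasm (log2 -0.32 ± 0.072, adjusted p = 0.0298), where 4.92% of genes were called. Without AGO1/2 passage 9 or 10, or AGO1/2/3 passage 11 or 12, that call was lost, with changes of -0.30, -0.23, -0.32 and -0.30. TARBP2 (ENSG00000139546.12, chromosome 12, 53500921 to 53506431, plus strand) ranged from 13.72 to 16.82 CPM in wild-type and from 16.38 to 21.17 CPM in AGO1/2 knockout cytoplasm, and its change of 0.29 was not called (adjusted p = 0.0547). It was called without AGO1/2 passage 11 (log2 0.38, adjusted p = 0.0158).

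XPO5 (ENSG00000124571.18, chromosome 6, 43522334 to 43576038, minus strand), the exporter of precursor hairpins, fell in the cytoplasm of both multiple knockouts. Wild-type libraries held 122.1, 122.8 and 107.6 CPM, AGO1/2 knockout libraries 79.1, 74.37 and 74.91 CPM, and AGO1/2/3 knockout libraries 91.46, 92.44 and 81.03 CPM. No knockout library reached the lowest wild-type library. The log2 change was -0.63 ± 0.076 with AGO1/2 lost (adjusted p = 7.63e-06) and -0.41 ± 0.076 with AGO1/2/3 lost (adjusted p = 0.000521), and both calls were kept under each of the 9 alternatives and the 6 left-out libraries. In AGO1 knockout cells XPO5 went the other way, with 142.9, 143.6 and 148.0 CPM (log2 0.30 ± 0.076, adjusted p = 0.0166). That call was lost without AGO1 passage 7 or 8 or wild-type passage 29 (log2 0.31, 0.29 and 0.24, adjusted p = 0.0509, 0.0524 and 0.0543). Its level in AGO2 knockout cells was below that in AGO1 knockout cells (log2 -0.40 ± 0.075, adjusted p = 0.00115).

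Among the Microprocessor genes, DROSHA and DDX5 fell in the cytoplasm and DGCR8 and DDX17 were not called. DROSHA (ENSG00000113360.17, chromosome 5, 31400494 to 31532196, minus strand) held 70.65, 73.89 and 56.0 CPM in wild-type and 52.65, 48.13 and 53.25 CPM in AGO1/2 knockout cells (log2 -0.38 ± 0.092, adjusted p = 0.00288), with no overlap. In AGO1/2/3 knockout cells it held 54.46, 60.34 and 51.47 CPM, which overlaps wild-type passage 29 (log2 -0.27 ± 0.091, adjusted p = 0.0289). The AGO1/2/3 call was lost without AGO1/2/3 passage 11 or 14 or wild-type passage 27 or 28 (log2 -0.24, -0.22, -0.23 and -0.19), while without wild-type passage 29 it was -0.38 (adjusted p = 0.000559).

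DDX5 (ENSG00000108654.16, chromosome 17, 64498254 to 64508199, minus strand) held 480.0, 473.7 and 308.3 CPM in wild-type cytoplasm and 276.3, 249.3 and 291.6 CPM in AGO1/2 knockout cytoplasm, again with no overlap (log2 -0.63 ± 0.14, adjusted p = 0.00158). In AGO1/2/3 knockout cells its 347.1, 389.3 and 291.8 CPM overlapped wild type and the change of -0.30 was not called (adjusted p = 0.105). Without wild-type passage 29 that change was -0.48 and called (adjusted p = 0.000704). DGCR8 (ENSG00000128191.17, chromosome 22, 20080221 to 20111877, plus strand) lay between 35.12 and 54.11 CPM in wild type and between 43.1 and 52.68 CPM over the 4 knockout lines. Its AGO1/2/3 difference of -0.03 became -0.20 and called without wild-type passage 29 (adjusted p = 0.0377). DDX17 (ENSG00000100201.23, chromosome 22, 38483438 to 38507660, minus strand) lay between 195.4 and 273.2 CPM in wild type and between 236.1 and 316.0 CPM in the knockout lines.

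The tailing enzymes fell in AGO1/2 knockout cytoplasm. TUT7 (ENSG00000083223.18, chromosome 9, 86287733 to 86354454, minus strand) held 35.55, 37.41 and 35.72 CPM in wild-type and 27.56, 24.53 and 30.47 CPM in AGO1/2 knockout cells (log2 -0.40 ± 0.085, adjusted p = 0.00121), and the groups did not overlap. TUT4 (ENSG00000134744.14, chromosome 1, 52408282 to 52553487, minus strand) held 61.71, 63.23 and 64.56 against 55.45, 54.26 and 59.05 CPM, a smaller change of -0.17 ± 0.060 (adjusted p = 0.0303). The call for TUT4 was lost without AGO1/2 passage 9 or 10 or wild-type passage 28 or 29 (log2 -0.15, -0.14, -0.17 and -0.15). Neither enzyme was called in the cytoplasm of AGO1/2/3 knockout cells, where TUT4 differed by 0.0018 (95% interval -0.12 to 0.12) and TUT7 by -0.13 (-0.30 to 0.035).

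In nuclear RNA, TUT4 was the member that fell in every knockout line. Wild-type libraries held 149.5, 159.2 and 152.7 CPM, AGO1 knockout libraries 128.0, 125.8 and 128.1, AGO2 knockout libraries 124.6, 120.1 and 123.4, AGO1/2 knockout libraries 99.71, 101.2 and 109.2, and AGO1/2/3 knockout libraries 119.0, 110.2 and 107.3 CPM. All 12 knockout libraries were below the 3 wild-type libraries. The log2 changes were -0.27 ± 0.056 (adjusted p = 0.00188), -0.33 ± 0.056 (adjusted p = 0.000296), -0.57 ± 0.056 (adjusted p = 1.93e-07) and -0.45 ± 0.056 (adjusted p = 3.77e-06). With protein-coding transcripts only, the AGO1 change was -0.12 and not called, while the other 3 stayed called at -0.22, -0.47 and -0.30. DROSHA followed in the multiple knockouts: 140.6, 137.8 and 123.8 CPM in wild type against 108.5, 109.9 and 107.5 CPM in AGO1/2 (log2 -0.30 ± 0.054, adjusted p = 0.000112) and 106.7, 107.6 and 108.1 CPM in AGO1/2/3 knockout cells (log2 -0.32 ± 0.054, adjusted p = 9.27e-05). The groups did not overlap, and both DROSHA calls were kept under all 9 alternatives and all 6 left-out libraries.

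The members called in nuclear RNA numbered 3 in AGO1, 3 in AGO2, 5 in AGO1/2 and 2 in AGO1/2/3 knockout cells, where 29.6%, 39.9%, 67.3% and 58.4% of the 18919 genes tested were called. Nuclear DICER1 was 206.8, 200.4 and 160.4 CPM in wild-type and 231.5, 253.9 and 216.1 CPM in AGO1/2 knockout cells (log2 0.31 ± 0.089, adjusted p = 0.00637), less than the cytoplasmic rise. With protein-coding transcripts only it was 0.028 (adjusted p = 0.802). The AGO2 rise of nuclear DICER1 (log2 0.24, adjusted p = 0.0403) was lost without AGO2 passage 8 or wild-type passage 29 (log2 0.20 and 0.16). The change of 0.20 in AGO1/2/3 knockout cells was not called (adjusted p = 0.061), but was so without AGO1/2/3 passage 14 or wild-type passage 27 or 28 (log2 0.25, 0.30 and 0.27).

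Nuclear TARBP2 rose in AGO1 (log2 0.43 ± 0.094, adjusted p = 0.00284), AGO2 (0.34 ± 0.093, adjusted p = 0.00808) and AGO1/2 knockout cells (0.23 ± 0.093, adjusted p = 0.036). It held 15.07, 14.26 and 12.04 CPM in wild-type and 19.51, 18.48 and 17.71 CPM in AGO1 knockout nuclei. From protein-coding transcripts alone, the calls in AGO1 (log2 0.21, adjusted p = 0.118) and AGO1/2 knockout cells (0.23, adjusted p = 0.0502) were lost, and the AGO1/2 call was kept under 3 of 9 alternatives. It was also lost without AGO1/2 passage 9 or 10 or wild-type passage 29 (log2 0.20, 0.24 and 0.17), and in AGO1/2/3 knockout cells TARBP2 was called only without wild-type passage 27 (log2 0.28, from 0.17). Nuclear XPO5 was 188.5, 188.5 and 151.2 CPM in wild type and rose to 231.2, 223.8 and 221.4 CPM in AGO1 knockout cells (log2 0.36 ± 0.080, adjusted p = 0.00339). It was not called in the other lines, but without wild-type passage 29 it was -0.18 in AGO1/2/3 knockout cells (adjusted p = 0.0266, from -0.10), and without passage 27 it was 0.24 in AGO2 knockout cells (adjusted p = 0.0468).

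Nuclear TUT7 fell in AGO1/2 knockout cells by 0.18 on the log2 scale (adjusted p = 0.0219), with overlapping libraries. It was lost without AGO1/2 passage 9 or 10 or wild-type passage 28 or 29 (log2 -0.16, -0.13, -0.16 and -0.092). DGCR8, DDX5, DDX17 and PRKRA were not called in nuclear RNA of any line. For DGCR8 the AGO1/2/3 difference of -0.13 became -0.24 without wild-type passage 29 (adjusted p = 0.0165). DDX5 differed by -0.13 in AGO1/2 knockout cells and was called without AGO1/2 passage 11 or wild-type passage 29 (log2 -0.17 and -0.15). DDX17 (-0.15) and PRKRA (0.16) were called in AGO1/2 knockout cells without AGO1/2 passage 11 and without passage 9 respectively.

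**Figure D3:**
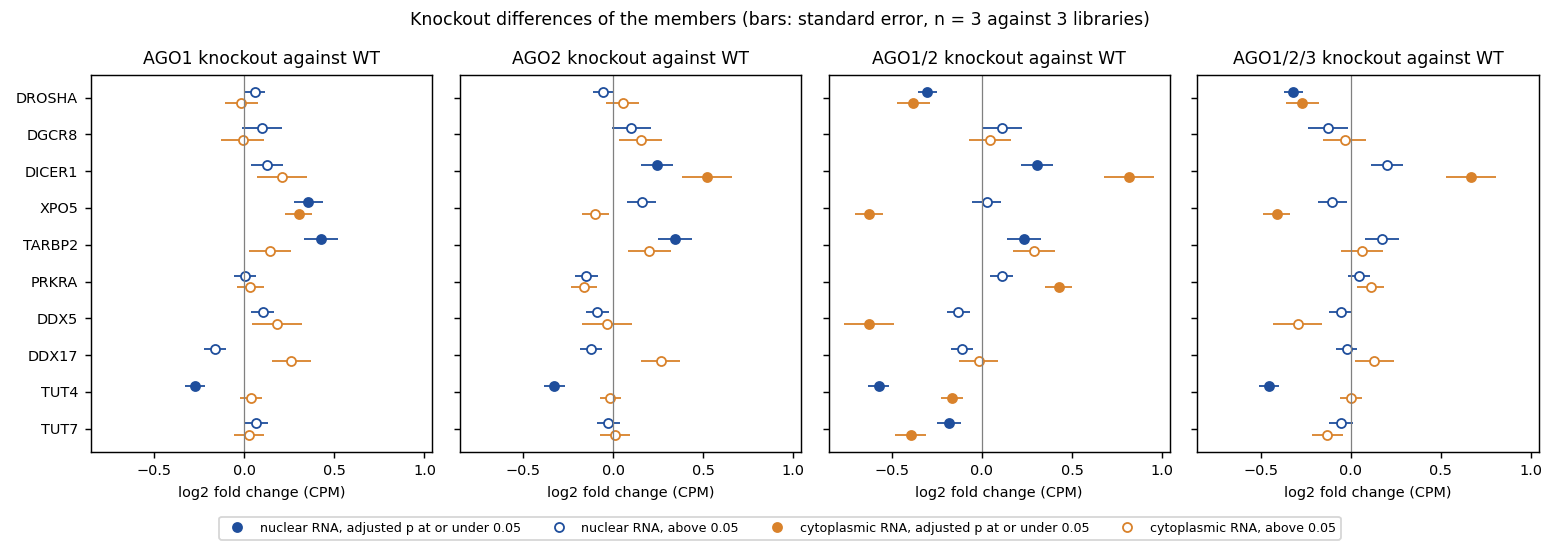
Log2 difference from wild type of the 10 genes, with 1 panel for each knockout line, in nuclear (blue) and cytoplasmic RNA (orange). Bars give 1 standard error, and filled points had an adjusted p of at most 0.05 in edgeR. Nuclear TUT4 lies below 0 in all 4 panels, and DICER1 lies farthest above 0 in AGO1/2 knockout cytoplasm, at 0.82.

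The lines were also set against each other. Between AGO1/2/3 and AGO1/2 knockout cells no member was called in nuclear RNA, where 3.83% of genes were. Without AGO1/2 passage 11, DGCR8 (log2 -0.34) and TUT7 (0.19) were called there, and TUT4 (0.23) and TUT7 (0.36) were called in the cytoplasm. Without AGO1/2 passage 11, nuclear DICER1 against AGO1 (0.24) and TUT7 against AGO2 knockout cells (-0.22) were called too. AGO1/2 against AGO1 knockout cells gave 8 called members in the cytoplasm (54.1% of all genes) and 5 in the nucleus (61%). The largest of these was XPO5 in the cytoplasm (log2 -0.93 ± 0.076, adjusted p = 1e-07), followed by DDX5 (-0.81 ± 0.14), DICER1 (0.61 ± 0.14), TUT7 (-0.42 ± 0.084) and PRKRA (0.39 ± 0.072). In the nucleus DROSHA (-0.36), XPO5 (-0.33), TUT4 (-0.30), TUT7 (-0.25) and DDX5 (-0.24) were all lower in AGO1/2 knockout cells. On both TPM scales the nuclear calls of XPO5, TUT4 and DDX5 and the cytoplasmic calls of DICER1 and PRKRA were lost. The median of all genes on log2(TPM + 1) was at 0.175 in the nucleus and -0.222 in the cytoplasm. With protein-coding transcripts only, nuclear DDX5 was at 0.0187 and not called.

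AGO1/2 against AGO2 knockout cells gave 7 called members in the cytoplasm (45.7% of genes) and 3 in the nucleus (54.2%). Cytoplasmic PRKRA was higher (0.59 ± 0.073) and DDX5 (-0.59), XPO5 (-0.53), DROSHA (-0.43) and TUT7 (-0.41) were lower. Nuclear DROSHA (-0.25) and TUT4 (-0.25) were lower and PRKRA (0.26) higher. The nuclear call of TUT4 was lost on both TPM scales, and that of PRKRA with counts scaled by transcript length. The single knockouts differed in 1 member in each fraction, where 26% of genes were called in the cytoplasm and 26.3% in the nucleus: XPO5 as above, and nuclear DDX5, lower in AGO2 than in AGO1 knockout cells by 0.19, a call lost without any 1 of the 6 libraries. The cytoplasmic changes of DDX17 in AGO1/2 against AGO1 and AGO2 knockout cells (both -0.28) were lost without 5 and without 6 of the 6 libraries, and that of TUT4 against AGO2 knockout cells (-0.15) without 4.

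The members work in different compartments, and their mRNAs were next compared between nuclear and cytoplasmic RNA of the same cells. In wild type 7 members were called higher in nuclear RNA and 2 lower, against 39.5% and 37.2% of the 20104 genes tested (76.7% in either direction). DDX17 (log2 1.38 ± 0.091) and DDX5 (0.94 ± 0.11) led, followed by TUT4 (0.85 ± 0.058), TUT7 (0.81 ± 0.075), DROSHA (0.57 ± 0.080), DGCR8 (0.35 ± 0.13) and DICER1 (0.35 ± 0.13). TARBP2 (-0.61 ± 0.11) and PRKRA (-0.65 ± 0.067) were lower. XPO5 (0.15 ± 0.086, adjusted p = 0.113) was not called, but with passage as a replicate block it was (0.14, adjusted p = 0.0393). It was also called without nuclear wild-type passage 29 (0.28) or without both passage 29 libraries (0.22). The calls of DGCR8 and DICER1 were lost without cytoplasmic passage 29 (0.17 and 0.13), nuclear passage 27 (0.25 and 0.28) or nuclear passage 28 (0.30 and 0.30).

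For some members another scale gave another direction. TPM moved the median of all genes by 0.25 on the log2 scale in this comparison, and relative to that median TARBP2 was at 0.23 and PRKRA at 0.15, whereas the counts put both lower in the nucleus. With protein-coding transcripts only, DGCR8 was at -0.26 and DDX5 at -0.22, neither called, while DDX17 (0.81), TUT4 (0.59), TUT7 (1.24) and DROSHA (0.94) stayed higher. In the knockout lines DROSHA, XPO5, DDX5, DDX17, TUT4 and TUT7 were called higher in nuclear RNA in all 4, DGCR8 in all but AGO1/2/3, and TARBP2 and PRKRA were called lower in all 4. Counting only protein-coding transcripts, the calls of DDX5 in AGO1 (0.087, adjusted p = 0.673) and AGO2 (0.12, adjusted p = 0.55) and all those of DGCR8 in these lines were lost. On log2(TPM + 1) TARBP2 and PRKRA were above 0 in all 4 lines, as was the median of all genes. PRKRA lay below that median with AGO1/2 lost (0.255 against 0.739) and with all 3 genes lost (0.179 against 0.413). It was also below in AGO2 knockout cells (0.304 against 0.332), but above in AGO1 knockout cells (0.326 against 0.258). TARBP2 lay below the median with AGO1/2 lost (0.638 against 0.739) and above it in the other lines. The comparison was called for 9 members in AGO1, AGO2 and AGO1/2 and for 8 in AGO1/2/3 knockout cells, beside 74.3%, 73.3%, 68.4% and 70% of all genes. DICER1 was not called in any knockout line, but was in AGO1 without nuclear AGO1 passage 8 (0.32). Single libraries also decided XPO5 in AGO1 (lost without cytoplasmic passage 6 or 7 or nuclear passage 6), TARBP2 in AGO1 (cytoplasmic passage 6 or nuclear passage 8), DGCR8 in AGO2 (any cytoplasmic library, or nuclear passage 8 or 9) and DGCR8 in AGO1/2 knockout cells (cytoplasmic passage 11, or nuclear passage 9 or 10).

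**Figure D4:**
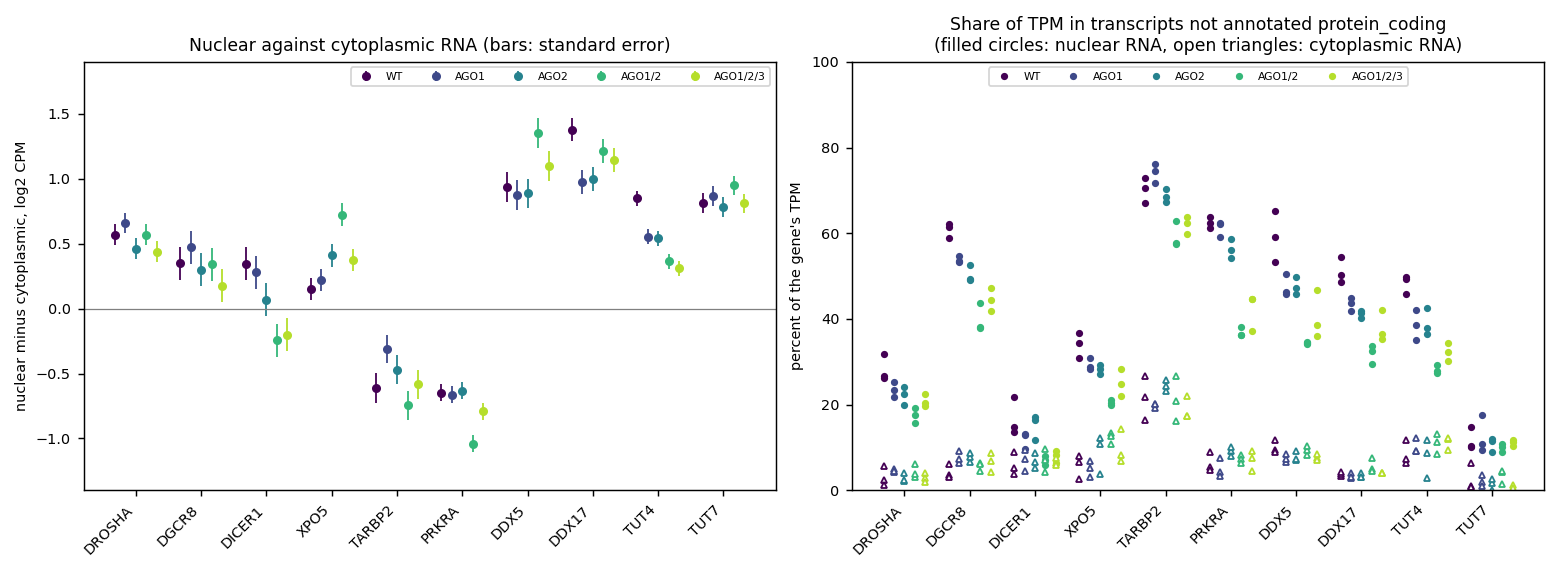
Left, log2 difference between nuclear and cytoplasmic RNA for the 10 genes in each genotype, with bars of 1 standard error. Right, percent of the gene's TPM in transcripts not annotated as protein coding, with a filled circle for each nuclear and an open triangle for each cytoplasmic library. TUT4 goes from 0.85 in wild type to 0.31 in AGO1/2/3 knockout cells on the left, and the mean nuclear share of DDX5 goes from 59.3% in wild type to 34.4% in AGO1/2 knockout cells on the right.

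Whether a knockout moved a member by another amount in the nucleus than in the cytoplasm was tested as an interaction in the fit of all 30 libraries. No member was called in AGO1 knockout cells (0.652% of genes), 1 in AGO2 (5.48%), 5 in AGO1/2 (36.4%) and 2 in AGO1/2/3 knockout cells (22.6%). The labels share passage numbers between the fractions in every line, and this fit does not pair them. Only in wild type did every passage pair deviate together with a correlation over 0.1. With passage as a replicate block, 14 were called in place of 8. The 6 gained were DDX17 (-0.42) and TUT4 (-0.29) in AGO1, DICER1 (-0.30), XPO5 (0.27) and DDX17 (-0.40) in AGO2, and XPO5 (0.23) in AGO1/2/3 knockout cells. The nuclear change of TUT4 differed from its cytoplasmic change by -0.31 ± 0.081 in AGO2, -0.48 ± 0.081 in AGO1/2 and -0.54 ± 0.081 in AGO1/2/3 knockout cells (adjusted p = 0.0244, 3.43e-05 and 2.82e-05). The rise of DICER1 was smaller in the nucleus than in the cytoplasm in AGO1/2 (-0.59 ± 0.18, adjusted p = 0.012) and AGO1/2/3 knockout cells (-0.55 ± 0.18, adjusted p = 0.0295). In AGO1/2 knockout cells XPO5 (0.57 ± 0.12, adjusted p = 0.000495) and DDX5 (0.42 ± 0.16, adjusted p = 0.0425) changed less in nuclear than in cytoplasmic RNA, where both fell, and PRKRA (-0.39 ± 0.093, adjusted p = 0.00143) rose more in the cytoplasm. On log2(TPM + 1) the AGO1/2 calls of DICER1 (-0.25), PRKRA (-0.18) and TUT4 (-0.18) were lost, as was that of PRKRA with protein-coding transcripts only (-0.098). Both of these alternatives also ended the call of TUT4 in AGO2, and the TPM scale that of DICER1 in AGO1/2/3 knockout cells. On the same TPM scale DICER1, PRKRA and TUT4 in AGO1/2 knockout cells were at -0.66, -0.59 and -0.59 relative to the median of all genes, which was at 0.41. Both DICER1 calls were lost in a fit to the compared libraries only, and the DDX5 call was lost there, with DESeq2 and with RLE factors. Single libraries decided TUT4 in AGO2 (lost without 6 of 13), DDX5 in AGO1/2 (9 of 13) and DICER1 in AGO1/2/3 knockout cells (6 of 13). DDX17 was called in AGO2 knockout cells without cytoplasmic wild-type passage 27 or 28 (-0.45 and -0.46). DDX5 was called in AGO1/2/3 knockout cells as well without cytoplasmic wild-type passage 29 (0.35, adjusted p = 0.03).

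Summed levels mix transcripts that code for protein with retained introns and other classes, so the ratio of the TPM of transcripts not annotated protein coding to that of protein-coding transcripts was tested by limma over 9484 genes. In wild type this ratio was higher in nuclear than in cytoplasmic RNA for all 10 members, as it was for 71.5% of the genes. The rise ran from 1.56 (DICER1) and 1.77 (TUT7) to 4.52 (PRKRA), 4.63 (DDX17) and 4.77 (DGCR8) on the log2 scale, with a median of 3.41 over the members beside 1.77 over all genes. With 1 TPM in place of 0.1 TPM added to both classes, TUT7 was at -0.0496 and not called. Of the nuclear TPM of DGCR8 in wild-type cells, 60.9% lay in such transcripts, against 4.30% in the cytoplasm. For DDX5 the shares were 59.3% and 10.1%, for DDX17 51.1% and 3.86%, and for TARBP2 70.2% and 21.6%.

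The nuclear ratio was lower in the multiple knockouts. In AGO1/2 knockout cells it was lower for 9 members, all but TUT7 (53.6% of genes were lower), with a median of -1.19 beside -0.82 over all genes. It was lower for 7 with AGO1/2/3 lost, all but DROSHA, XPO5 and TUT7 (39.6% of genes), with a median of -0.86 beside -0.61. PRKRA (-1.49 ± 0.25, adjusted p = 3.91e-05) and DDX5 (-1.48 ± 0.19, adjusted p = 1.31e-06) fell most in AGO1/2 knockout cells. In AGO2 knockout cells the ratio fell for DDX5 (-0.69) and DDX17 (-0.58), against 8.66% of genes, and in AGO1 knockout cells for no member, against 1.08%. When transcripts whose deposited length differed by over 10% from the current annotation were left out, the change of DDX5 was -0.45 in AGO1/2, -0.41 in AGO1/2/3 and 0.0030 in AGO2 knockout cells, none of them called, and those of TARBP2 were not called either (-0.49 and -0.38).

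Several of the nuclear calls rested on single libraries. In AGO1/2 knockout cells the ratio of DROSHA was lost without AGO1/2 passage 9 or wild-type passage 28 (-0.80 and -0.76), and that of XPO5 without AGO1/2 passage 10 or 11 or wild-type passage 27 or 28 (-0.90 to -0.98). With AGO1/2/3 lost, TUT4 was lost without AGO1/2/3 passage 11 (-0.89) and TARBP2 without AGO1/2/3 passage 12 or 14 or wild-type passage 27 or 28 (-0.43 to -0.54). In AGO2 knockout cells DDX5 was lost without AGO2 passage 8 or 9 or wild-type passage 28 or 29 and DDX17 without any 1 of the 6 libraries. DDX5 was called in AGO1 knockout cells without wild-type passage 27 (-0.86, from -0.69).

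In cytoplasmic RNA the ratio of DGCR8 rose by 0.75 in both AGO1 and AGO2 knockout cells (1.98% and 2.54% of genes were called), and those of XPO5 (1.25) and DDX17 (0.54) rose in AGO1/2 knockout cells (12.8%). No member was called in AGO1/2/3 knockout cells (5.96%). Each of these 4 cytoplasmic calls was lost without some single library, and the first 2 and that of XPO5 without wild-type passage 29 (0.67, 0.67 and 0.83). Without that library the ratio of DROSHA in AGO1 (1.23) and AGO1/2 (1.26) and of TUT7 in AGO1/2 knockout cells (1.30) was called. DGCR8 was called in AGO1/2/3 knockout cells without AGO1/2/3 passage 14 or wild-type passage 28 (0.78 and 0.77). With 1 TPM added to both classes, the DGCR8 calls in AGO1 and AGO2 knockout cells were lost. The AGO1 call was also lost without transcripts of altered length.

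The transcripts behind these shares were then listed. The retained-intron transcript DDX5-215 averaged 163 ± 7.91 TPM (SD, n = 3) in wild-type nuclei, 81.0 ± 4.55 in AGO1/2 and 90.2 ± 10.4 in AGO1/2/3 knockout nuclei, and 6.64 ± 1.07 in wild-type cytoplasm. The coding transcript DDX5-201 was at 49.3 ± 33.0, 151 ± 9.70 and 109 ± 26.8 TPM in the same nuclei, and at 82.3 ± 25.8, 36.8 ± 4.54 and 52.1 ± 8.33 TPM in the cytoplasm. The retained-intron transcript DDX17-201 was at 55.1 ± 0.973 TPM in wild-type, 31.6 ± 2.37 in AGO1/2 and 34.5 ± 4.12 in AGO1/2/3 knockout nuclei. These TPM values were given no test of their own.

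For DGCR8 the retained-intron transcripts DGCR8-208 and DGCR8-209 were at 3.82 ± 1.06 and 3.31 ± 1.0 TPM in wild-type nuclei and at 0.0646 and 0.0773 TPM in wild-type cytoplasm, while the coding DGCR8-201 was at 6.76 ± 1.32 and 7.66 ± 2.0 TPM. PRKRA-201, 1 of 3 coding transcripts of PRKRA, was at 4.74 ± 0.494 TPM in wild-type, 9.67 ± 1.31 in AGO1/2 and 7.69 ± 0.527 in AGO1/2/3 knockout nuclei, beside 12.6 ± 0.479 TPM in wild-type cytoplasm. The coding transcripts of PRKRA together held 8.501, 8.379 and 7.328 TPM in wild-type and 11.2, 13.3 and 11.03 TPM in AGO1/2 knockout nuclei. TUT4-203, which has no defined coding sequence, was at 5.40 ± 0.51 TPM in wild-type nuclei and 1.94 ± 0.323 and 1.99 ± 0.289 in the multiple knockouts. XPO5-201, which holds 93.7% of the cytoplasmic TPM of XPO5 in wild type, was at 16.2 ± 2.0 TPM there and at 7.79 ± 0.541 and 10.2 ± 0.86 TPM in the multiple knockouts. Of the 8 coding forms of DICER1, DICER1-201 and DICER1-204 were at 2.85 ± 0.873 and 5.89 ± 2.03 TPM in wild-type cytoplasm, and at 3.53 ± 0.0679 and 7.90 ± 0.532 in AGO1/2 knockout cytoplasm. All its coding forms together held 14.81, 13.79 and 8.268 TPM in wild-type and 16.15, 15.5 and 15.8 TPM in AGO1/2 knockout cytoplasm. With protein-coding transcripts only, DDX5 was higher in the nuclei of AGO1 (0.58), AGO1/2 (0.60) and AGO1/2/3 knockout cells (0.55), where all its transcripts together were not called. These transcripts held 207.8, 186.1 and 117.1 TPM in wild-type nuclei, the last in passage 29. AGO1 (229.9, 198.1 and 164.4 TPM) and AGO1/2/3 nuclei (177.1, 212.2 and 216.6) overlapped them, and AGO1/2 nuclei (233.2, 237.7 and 243.2) did not. As given above, the class ratio of DDX5 was not called without transcripts of altered length.

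Genes that overlap members in the annotation could exchange reads with them, although the library kit keeps the strand. In AGO1/2/3 knockout nuclei DICER1-AS1 was lower by 0.80 on the log2 scale (adjusted p = 0.00111), CHROMR, which overlaps PRKRA, by 1.02 (adjusted p = 1.14e-07), and KDELR3, which overlaps DDX17, was higher by 1.12 (adjusted p = 3.87e-08). In the cytoplasm CHROMR fell by 0.75, CEP95, which overlaps DDX5, by 0.72, and KDELR3 rose by 0.53.

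Other genes of the pathway were taken from 4 lists. Of 14 cofactors of the Microprocessor and of primary transcripts, 4 rose and 2 fell in AGO1/2/3 knockout nuclei (median 0.20, all genes -0.033), among them KHSRP (0.52 ± 0.095), which binds terminal loops, ERH (0.46 ± 0.11), which binds DGCR8, and METTL3 (-0.46 ± 0.094), the RNA methyltransferase. In the cytoplasm 4 fell and none rose (median -0.17, all genes -0.014): METTL3 (-0.53 ± 0.11), SAFB2 (-0.44 ± 0.13) and DDX1 (-0.35 ± 0.10) fell most. With AGO1/2 lost, 9 of the 14 rose and 2 fell in the nucleus (median 0.34, all genes -0.059). In the cytoplasm 11 fell (median -0.445, all genes -0.0087). Of all genes, 67.3% (nuclear) and 49% (cytoplasmic) were called with AGO1/2 lost, and 58.4% and 38.6% with AGO1/2/3 lost.

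Of 6 genes of export and the Ran cycle, RANBP1 (0.62 ± 0.091), RAN (0.51 ± 0.098) and RANGAP1 (0.37 ± 0.091) rose in AGO1/2/3 knockout nuclei, and NUP153 (-0.42 ± 0.10) fell in the cytoplasm. RAN, RANBP1 and RANGAP1 belong to the GTPase cycle on which exportins depend, and NUP153 is a protein of the nuclear pore. Of 16 genes for tailing, trimming and decay, 2 rose and 3 fell in the nucleus and 1 rose and 4 fell in the cytoplasm. LIN28B, which blocks let-7 maturation, fell in the nucleus (-1.13 ± 0.43, adjusted p = 0.0326), TSN, an endonuclease subunit, rose there (0.54 ± 0.083), and PNPT1, an exoribonuclease, fell in both fractions (-0.53 ± 0.11 and -0.69 ± 0.14). In the cytoplasm XRN2 fell (-0.45 ± 0.078) and LIN28A rose (1.62 ± 0.43, adjusted p = 0.00714). The RNA editing enzymes ADAR (0.40 ± 0.057) and ADARB1 (-0.20 ± 0.069) were called in the nucleus and neither in the cytoplasm. In AGO1/2 knockout cells 4 export genes rose in the nucleus and 2 fell in the cytoplasm, 3 tailing genes rose and 4 fell in the nucleus, and 1 rose and 8 fell in the cytoplasm. ADAR and ADARB1 gave 1 rise in the nucleus there, and 1 rise and 1 fall in the cytoplasm. The lists were drawn up with results of these data known, and the shares of all genes called in these comparisons stand above.

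For each member the gene whose 10 group means of log2 CPM, centred on their own mean, lay nearest by root mean square difference was found. The distances were 0.046 for DROSHA and KIAA0753, 0.050 for PRKRA and LOXL1-AS1, 0.064 for DICER1 and CFAP410, 0.065 for TUT4 and RBM6, and 0.067 for XPO5 and NUP133. They were 0.067 for TUT7 and ZNF445, 0.068 for DGCR8 and SLC7A6OS, 0.069 for TARBP2 and NELFCD, 0.071 for DDX5 and MATR3, and 0.094 for DDX17 and RGPD6. The median distance of a member to all tested genes lay between 0.576 (TARBP2) and 0.805 (DDX17), and no member was the nearest gene of another. A nearest distance is the smallest over all tested genes, so it lies under the median by construction. Whether these nearest distances differ from those of other genes was not tested.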

How the data were processed

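Nuclear and cytoplasmic total RNA of 5 HCT116 genotypes was sequenced in 30 libraries (10 groups of 3). The authors made stranded, ribosomal-RNA-depleted libraries and quantified transcripts with Salmon, and deposited for each transcript an estimated count of reads that is not normalized, and a TPM value, which is scaled by effective length and to a fixed library total. The submitters' processing notes name STAR 2.5.3a, Salmon 0.11.0, DESeq2 and hg38, and the published methods give other versions of STAR and Salmon. Extraction is described as Trizol in the labels and as column-based in the methods. The 8 eCLIP samples were not used here.

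Of 200401 transcripts, 196040 (97.82%) were matched to symbols in GENCODE 44 (GRCh38), and the unmatched ones held 2.23 to 4.01% of reads. The release the authors used was not settled: 31 of the 154 member transcripts have another length in GENCODE 44, 22 of them by over 10%. Estimated counts were summed per gene and rounded, and genes were kept by filterByExpr (minimum count 10). Groups came from the labels. Comparisons used the quasi-likelihood test of edgeR 4.0.16 in R 4.3.3 with TMM factors and Benjamini-Hochberg adjustment over all genes tested, called at 0.05. The 15 libraries of a fraction shared 1 fit, and comparisons between fractions used all 30 libraries. The class ratio was log2 of (TPM of other transcripts + 0.1) over (TPM of protein-coding transcripts + 0.1), tested with limma 3.58.1 for genes with a mean of at least 1 TPM. SE and intervals are those of the fits. The steps were tested on simulated data.

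Alternatives were DESeq2 1.42.0, RLE factors, no filter on counts, a minimum mean of 50 counts, length-scaled counts, TPM with a pseudocount of 1 or 0.1, protein-coding transcripts only, fits to the compared libraries only, passage as a replicate block, and each library left out. Leaving out both wild-type passage 29 libraries, leaving out transcripts of altered length, and the alternatives for comparisons between knockout lines were added after seeing the data. Nuclear and cytoplasmic libraries of 1 passage deviated together in wild type (correlations 0.124, 0.117 and 0.344) but not at over 0.1 in every pair of the knockout lines.

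The members and lists were chosen with earlier results of these data known. Named genes are all members, AGO genes, fraction markers, the 3 called list genes with the largest change in AGO1/2/3 knockout cells in each fraction, the nearest gene by group means, overlapping genes, and transcripts with at least 10% of a member's TPM. Library depths stand in the report, and the SE beside each change gives its precision.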

Additional observations from a re-analysis of the deposited data

Results flagged for a closer look

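The interaction term, the nuclear minus the cytoplasmic log2 change against wild type, passed an edgeR adjusted p of 0.05 for 8 pairs of member and line. In AGO2 knockout cells it was -0.307 for TUT4 (adjusted p = 0.0244). In AGO1/2 knockout cells it was -0.589 for DICER1 (adjusted p = 0.012), 0.574 for XPO5 (adjusted p = 0.000495), -0.393 for PRKRA (adjusted p = 0.00143), 0.418 for DDX5 (adjusted p = 0.0425) and -0.484 for TUT4 (adjusted p = 3.43e-05). With all 3 genes lost it was -0.548 for DICER1 (adjusted p = 0.0295) and -0.538 for TUT4 (adjusted p = 2.82e-05). DICER1, XPO5, PRKRA and TUT4 in AGO1/2 and TUT4 in AGO1/2/3 knockout cells were called whichever library was left out, but on log2(TPM + 1) DICER1, PRKRA and TUT4 in AGO1/2 knockout cells were not called (-0.249, -0.182 and -0.181). TUT4 in AGO2 was lost without 6 libraries (adjusted p = 0.0538 to 0.0802), DDX5 in AGO1/2 without 9 (0.31 to 0.44), and DICER1 in AGO1/2/3 knockout cells without 6, among them cytoplasmic wild-type passage 29 (-0.34, adjusted p = 0.0625). Nuclear MALAT1 and GAPDH, whose values stand in the report, moved with these lines, and their part was not tested. The cytoplasmic markers MT-CO1 and MT-ND4 were not called in nuclei of either multiple knockout.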

How the results depend on the processing

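Of 4680 values for members under alternatives, 4261 kept their direction and side of the threshold, 214 lost and 173 gained a call, and 32 changed direction with a call on at least one side; 313 more changed sign with no call on either side. The cause was not tested for any of them. On log2(TPM + 1) the directions that turned were, in nuclear RNA, DROSHA (-0.311) and TUT7 (-0.29) in AGO1, DICER1 (-0.0111) in AGO2 and PRKRA (-0.399) in AGO1/2/3 knockout cells, and PRKRA in AGO1/2 cytoplasm (-0.00848). On log2(TPM + 0.1) these were -0.317, -0.304, -0.0107, -0.418 and -0.00889. The median of all genes on log2(TPM + 1) was -0.193, -0.189 and -0.172 in AGO1, AGO2 and AGO1/2/3 nuclei and -0.349 in AGO1/2 cytoplasm. DICER1 and cytoplasmic PRKRA lay above it, and the others below. Between fractions on log2(TPM + 1), in wild type, AGO1, AGO2, AGO1/2 and then AGO1/2/3, TARBP2 was at 0.511, 0.768, 0.559, 0.638 and 0.517 and PRKRA at 0.436, 0.326, 0.304, 0.255 and 0.179. DICER1 was at 0.593 in AGO1/2 and 0.348 in AGO1/2/3. The median of all genes was 0.282, 0.258, 0.332, 0.739 and 0.413 in the same order, so DICER1 lay below it in both lines. PRKRA lay below it in AGO2 knockout cells and in both multiple knockouts, and TARBP2 in AGO1/2 knockout cells only. With protein-coding transcripts only, nuclear XPO5 (-0.191) and DDX5 (0.602) in AGO1/2, DDX5 in AGO1/2/3 (0.545) and in AGO1/2 against AGO1 (0.0187) turned, and so did, between fractions, DGCR8 in wild type (-0.263), AGO1 (-0.0863) and AGO2 (-0.118) and DDX5 in wild type (-0.224). The class ratio of TUT7 between wild-type fractions was -0.0496 with a pseudocount of 1 TPM, and that of DDX5 in AGO2 nuclei 0.00297 without transcripts of altered length.

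Calls against wild type numbered 13 of 40 in nuclear RNA (20 on either TPM scale, 11 to 16 with 1 library out) and 12 of 40 in cytoplasmic RNA (10 to 13 with 1 library out). They numbered 26 of 80 between knockout lines (22 to 30), 44 of 50 between fractions (42 to 45), 32 of 90 for class ratios (27 to 33) and 26 of 76 for the pathway lists in AGO1/2/3 knockout cells (23 to 36, and 42 on either TPM scale). Over all genes, nuclear calls in the AGO1/2/3, AGO1/2, AGO2 and AGO1 line numbered 11051, 12737, 7549 and 5605 of 18919. On log2(TPM + 1) they numbered 8031, 9248, 5496 and 5015 of 14001. In AGO1/2/3 cytoplasm all-gene calls went from 6800 of 17605 to 6595 of 11638. The shares of all genes for the other main fits stand in the report. Whether members or listed genes were called at another rate than all genes was not tested. Interactions numbered 8 of 40 (6 to 8), 4 on log2(TPM + 1), 5 with only the compared libraries and 14 with the replicate block. The replicate block gave 49 calls between fractions and 32 for class ratios. Passage numbers are shared by the fractions in every line, but only in wild type did every pair correlate at over 0.1.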
